A study of Mus musculus with 15 samples.

Results

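The kinesin motor family was taken as every protein-coding gene whose mouse symbol starts with Kif and a digit, or with Kifc and a digit. 43 genes of the 53801 in the count table met this rule, out of 21967 protein-coding genes. They were divided by known role into 14 mitotic kinesins, 15 transport kinesins and 13 other kinesins. The remaining gene, Kif1bp, encodes a kinesin-binding protein that is not itself a motor and was kept apart. 40 of the 43 passed the filter on low counts in each comparison. Kif2b and Kif12 had 0 counts in all 15 libraries, which allows at most 0.118 CPM (counts scaled to a fixed library size) in the shallowest library, taking 3 counts as the floor. Kif28 did not exceed 14 counts, or 0.515 CPM, in any library.

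RNA-seq was performed on primary adult neural stem cells (aNSCs), dividing cells grown in suspension from the subventricular zone of 2-month-old C57BL6/J-129sv mice. All mice carried the Rosa26-CreERT2 transgene, whose recombinase works in every cell type once 4-hydroxytamoxifen (4-OHT) is added. The 3 groups held 5 cultures each: untreated Trrap Fl/+ cultures, Trrap Fl/+ cultures given 4-OHT, and Trrap Fl/Fl cultures given 4-OHT, with 5 days of treatment in the labels. Both Fl/+ groups carry the culture numbers 19, 24, 26, 35 and 36, and the Fl/Fl group carries 27, 28, 29, 37 and 39. Trrap is a scaffold protein of histone acetyltransferase complexes. A Fl/+ culture given 4-OHT can lose only its single floxed allele, so setting 4-OHT-treated Fl/Fl against 4-OHT-treated Fl/+ cultures compares the loss of both alleles with the loss of 1. An untreated Fl/Fl group was not analysed here, so genotype and deletion cannot be told apart.

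Kinesins are ATP-driven motors that walk along microtubules. Mitotic kinesins slide, cross-link or shorten the microtubules of the spindle, align chromosomes and organise the midzone where the daughter cells separate, and in cycling cells their transcripts are known to accumulate in G2 and M phase. Transport kinesins carry vesicles, organelles and ciliary cargo, and are best known for long-range traffic in neurons. The other members regulate microtubule ends, the primary cilium or Hedgehog signalling, or are less well understood.

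The libraries held 25.7 M to 32.2 M counts. Trrap was at 179 to 214 CPM in untreated Fl/+, 138 to 204 CPM in Fl/+ 4-OHT and 82.8 to 142 CPM in Fl/Fl 4-OHT cultures, and it fell after deletion (log2 fold change -0.64 ± 0.16 SE, adjusted p = 0.0115, edgeR's quasi-likelihood test). The library labelled Fl/Fl 4-OHT 29, at 141.9 CPM, lay above Fl/+ 4-OHT culture 19, at 138.3 CPM, so Trrap overlapped between these groups. Without that library 18 members were called (adjusted p under 0.05, edgeR) after deletion instead of 20, since Kif9 and Kif19a were not. All 12 mitotic calls held, and the mitotic and transport medians were -0.91 and 0.03. Over all genes 4290 of 15164 were called without it, against 4773 of 15036 with it. All 9 neural stem cell markers passed the filter, and their summed level was 5965 to 10491 CPM over all libraries. Summed astrocyte markers were at 2148 to 5839 CPM and summed neuron markers at 592 to 1148 CPM over all libraries. Summed microglia markers did not exceed 2.01 CPM, and summed endothelial and mural markers did not exceed 10.004 CPM. Oligodendrocyte markers summed to 211 to 702 CPM in untreated Fl/+, 557 to 1090.1 CPM in Fl/+ 4-OHT and 670.0 to 2689.6 CPM in Fl/Fl 4-OHT cultures, the last value in culture 37, which also had the lowest summed mitotic kinesin level. RNA from a whole culture cannot tell fewer cells of a type from less RNA per cell.

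The promoters of the mitotic kinesins are shown first, because these genes moved together in the data. The cell cycle homology region (CHR, TTTGAA) and the CCAAT box (CCAAT) are the best known elements of genes that peak in G2 and M phase, and the GC box (GGGCGG) is the element bound by Sp1. Each was searched on both strands in RefSeq promoters of GRCm38.p6 that run from 250 bases before to 50 bases after an annotated start. Some of these starts lie inside the annotated gene, among them those of Kif1a, Kif2c, Kif14, Kif17 and Kif27. The shares below therefore mix outer and internal starts. None of these motifs contains another, and 34 members had at least 1 such promoter. The windows below hold 30 bases around a CHR near the start site, written 5′ to 3′ on the strand of the gene, with 1 CHR or its reverse complement per window in capitals.

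Kif11: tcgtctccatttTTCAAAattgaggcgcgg
Kif15: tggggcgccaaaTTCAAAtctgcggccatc
Kif22: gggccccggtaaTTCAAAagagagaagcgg
Kifc1: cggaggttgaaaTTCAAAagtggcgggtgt
Kifc5b: cggaggttgaaaTTCAAAagtgactggtgt
Kif18b: cggaccggctagTTTGAAcgcgccgcgccg
Kif20b: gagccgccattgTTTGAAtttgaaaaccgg
Kif23: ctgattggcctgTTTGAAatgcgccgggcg
Kif4: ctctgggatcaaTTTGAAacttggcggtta

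Among these, the Kif11 window is chr19:37376351-37376380 on the plus strand, the Kif22 window chr7:127042420-127042449 on the minus strand, and the Kif23 window chr9:61946780-61946809 on the minus strand. The Kif15 window is chr9:122951050-122951079, that of Kif20b chr19:34922353-34922382, that of Kif4 chrX:100626072-100626101 and that of Kifc5b chr17:26917108-26917137, all on the plus strand. Those of Kif18b (chr11:102925104-102925133) and Kifc1 (chr17:33890615-33890644) are on the minus strand. The windows of Kifc1 and Kifc5b differ only downstream of the CHR. The first base of the CHR lay at -19 in Kif11 and Kif15, -17 in Kif22, 2 in Kifc1, 3 in Kif23, 4 in Kif18b, 8 in Kif20b, 20 in Kif4 and 30 in Kifc5b, relative to the annotated start. Kif20b held a second CHR at 14, directly after the first and in lower case above, Kif15 and Kif22 held a further one at -234 and -215, and Kif2c (-103) and Kif14 (-228) held theirs farther upstream. In all, 11 of 13 mitotic kinesin promoters held a CHR (84.6%), against 1 of 12 transport promoters (8.33%), 2 of 12 other promoters (16.7%) and 16% of 21263 protein-coding promoters. The mitotic promoters without these letters in the window were those of Kif18a and Kif2b. A CHR and a CCAAT box stood together in 61.5% of the mitotic promoters and in 6.38% of all promoters. The GC box showed the other order, at 46.2% of mitotic, 75% of transport and 66.7% of other kinesin promoters, against 46.2% of all promoters. These counts describe letters in a window and not sites that a factor was shown to bind.

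The encoded motors differ in where the ATP-binding loop sits along the protein, computed from the longest open reading frame of the annotated transcripts. It lies early in most members, from 5.3% of the length in Kif1b and Kif21a to 28.8% in Kif14. It lies in the middle in Kif2a, Kif2b and Kif2c (42% to 47.7%), which shorten microtubule ends rather than walk. In Kifc1, Kifc5b, Kifc2 and Kifc3, the minus-end-directed members, it lies at 60.9% to 63.8%. No such loop was found in Kif1bp. The classes by cell role cut across this layout, with Kifc1 and Kifc5b on the mitotic side and Kifc2 and Kifc3 on the transport side.

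In untreated Fl/+ cultures 6 of the 7 highest kinesin transcripts per length of merged exons were transport kinesins. Kif1a, which carries synaptic vesicle precursors in neurons, stood first at 56.5 ± 9.24 CPM per kb (SD, n = 5). Kif1b, a carrier of mitochondria and vesicle precursors, followed at 35.4 ± 5.95 CPM per kb, Kif3a, a subunit of the kinesin-2 motor of cilia, at 33.1 ± 4.95, Kif21b, a regulator of microtubule growth and the 1 member of the other class among them, at 30.5 ± 2.07 and Kif1c, a carrier of dense-core vesicles, at 30.4 ± 6.33. The ubiquitous kinesin-1 heavy chain Kif5b was at 29.3 ± 8.39 CPM per kb, whereas its paralogue Kif5c was at 2.31 ± 0.707. The highest mitotic kinesins were Kif20a at 15.4 ± 6.56 and Kif22 at 15.4 ± 4.84 CPM per kb, at positions 9 and 10 in the order of 40 detected motors. Of the 39 pairs of neighbours in this order, 36 had overlapping ranges, so most neighbours did not differ beyond their spread. Dividing by the longest annotated transcript instead of merged exons kept Kif1a and Kif1b first and put Kif21b and Kif5b above Kif3a.

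**Figure D1:**
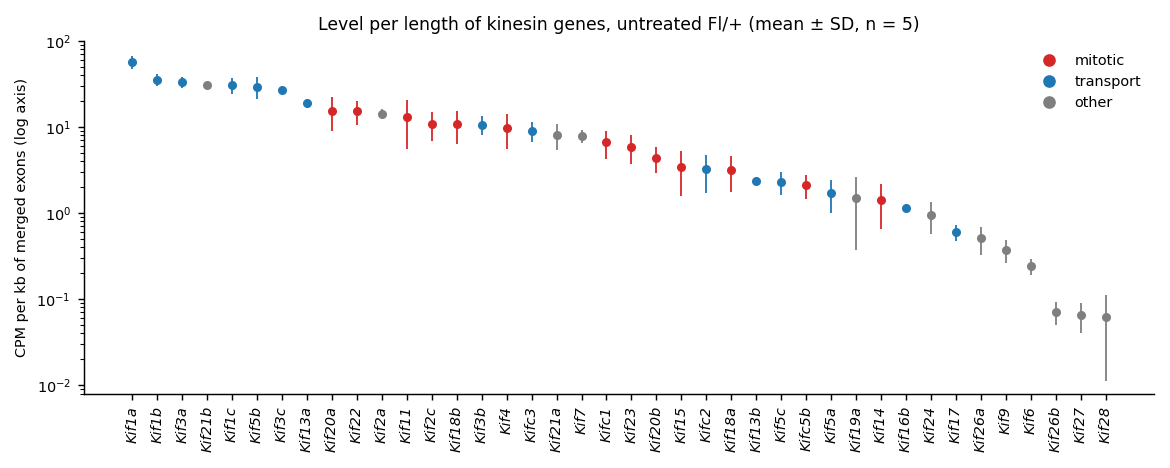
Level per length of the 40 detected kinesin motors in untreated Fl/+ cultures. The y axis gives CPM per kb of merged exons on a log scale, points are means of 5 libraries and bars the SD, in red for mitotic, blue for transport and grey for other kinesins. Kif1a stands first at 56.5 CPM per kb, and Kif20a is the highest mitotic kinesin at 15.4.

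Transcripts of the mitotic kinesins varied far more between cultures than those of the transport kinesins. In untreated Fl/+ cultures the 14 mitotic kinesins summed to 548, 554, 279, 526 and 940.2 CPM in cultures 19, 24, 26, 35 and 36, while the 15 transport kinesins summed to 1985, 1957, 2285, 2561 and 2552 CPM. Culture 26 had the lowest level of all 13 detected mitotic kinesins and culture 36 the highest of all 13. The coefficient of variation had a median of 40.9% over the 13 mitotic kinesins and 20.6% over the 15 transport kinesins in this group. The spread was smaller after 4-OHT in Fl/+ cultures (medians of 17.1% and 10.96%), where culture 26 was again the lowest for 12 of the 13. In Fl/Fl 4-OHT cultures, culture 37 was the lowest for 12 of 13 and culture 39 the highest for 11 of 13.

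**Figure D2:**
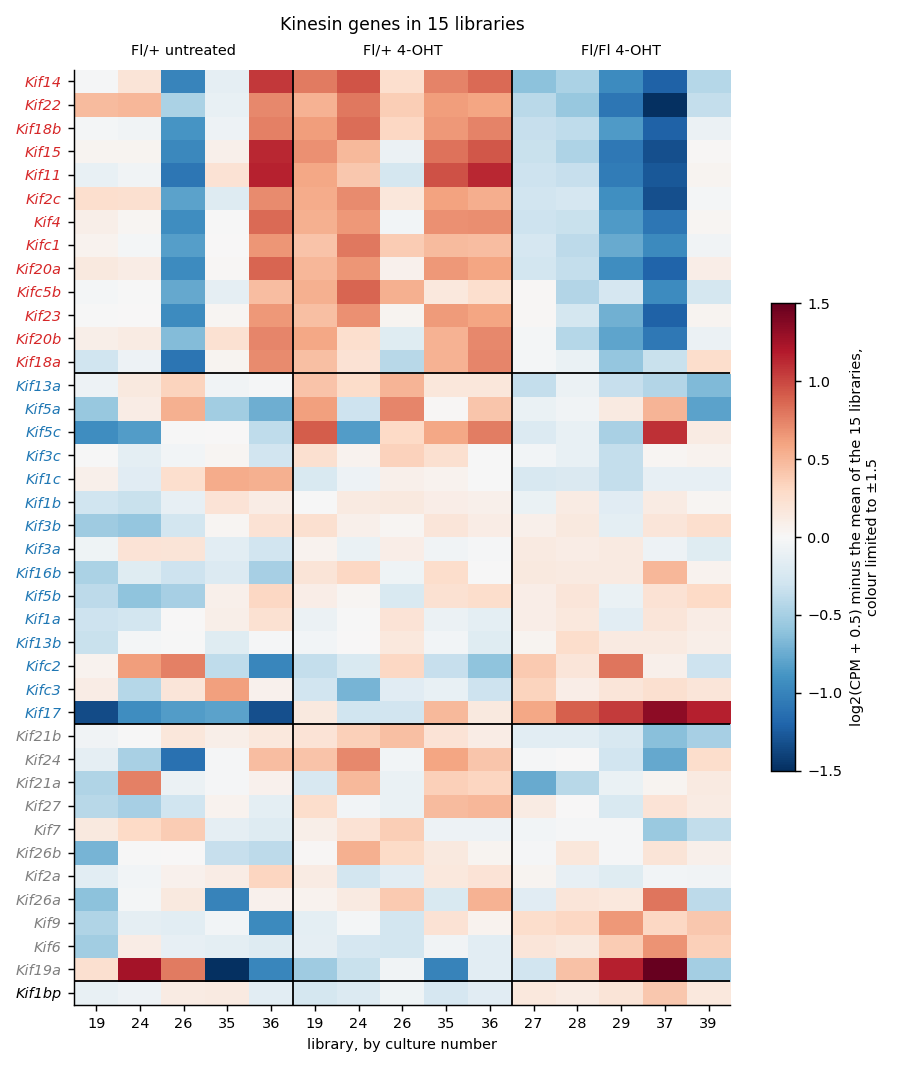
Level of the 40 tested members in the 15 libraries. Rows are genes grouped by class (mitotic in red, transport in blue, other in grey, Kif1bp in black), columns are cultures by number within the 3 groups, and colour gives log2(CPM + 0.5) minus the gene's mean over the 15 libraries. The mitotic rows shift together, low in untreated culture 26 and in Fl/Fl cultures 29 and 37, and Kif17 is low in all 5 untreated cultures.

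The first comparison asked how kinesin transcripts differ between cultures that can lose both Trrap alleles and cultures that can lose 1. Mitotic kinesins fell almost as a class. 12 of the 13 tested members were lower in Fl/Fl than in Fl/+ cultures after 4-OHT, with log2 fold changes of -1.48 to -0.84, and none was higher. Their median log2 fold change was -0.98, against 0.05 over the 15 transport kinesins, -0.16 over the 11 tested other kinesins and 0.02 over all 15036 genes tested. A gene counts as called when its Benjamini-Hochberg adjusted p, over all genes tested with edgeR's quasi-likelihood method, was under 0.05. Over the whole family 20 of 40 members were called, 14 lower and 6 higher, where 31.7% of all genes tested were called, 15% lower and 16.8% higher. The groups did not overlap for 13 of 40 members and for 22.6% of all genes tested.

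Several of the called mitotic kinesins build and focus the spindle. Kif11 (ENSMUSG00000012443, chr19:37376403-37421859 in GRCm38, plus strand), which slides antiparallel microtubules apart to keep the spindle bipolar, was at 128, 112, 70.7, 165 and 186 CPM in Fl/+ 4-OHT cultures 19, 24, 26, 35 and 36. It was at 68.5, 66.7, 40.7, 34.8 and 87.3 CPM in Fl/Fl cultures 27, 28, 29, 37 and 39. Only Fl/+ culture 26 reached down into the Fl/Fl range. Kif11 fell 2.20-fold (log2 fold change -1.13 ± 0.29 SE, adjusted p = 0.0124, edgeR), with an exact permutation p of 0.0159. Kif15, which backs up Kif11 in spindle assembly, was at 52.6, 45.6, 30.5, 57.5 and 62.4 CPM in Fl/+ and at 25.7, 23.5, 15.1, 12.7 and 32.7 CPM in Fl/Fl cultures, again overlapping through culture 26 (log2 fold change -1.16 ± 0.26, adjusted p = 0.00643, edgeR). Kifc1, a minus-end motor that bundles spindle poles, was at 29.4, 38.0, 28.4, 30.3 and 30.05 CPM against 18.1, 16.5, 12.7, 10.98 and 21.0 CPM. Its groups did not overlap (log2 fold change -0.96 ± 0.17, adjusted p = 0.00188, edgeR). Its near copy Kifc5b shared 36.8% of its 51-base words with another gene, and Kifc1 shared 39.1%, so the division of reads between the pair is uncertain. Kifc5b was called too (log2 fold change -0.87, adjusted p = 0.00847, edgeR).

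The chromokinesins and the regulators of microtubule ends fell in the same way. Kif22 (ENSMUSG00000030677, chr7:127027729-127042471, minus strand), which pushes chromosome arms towards the spindle equator, was at 88.8, 107, 80.2, 95.6 and 93.0 CPM in Fl/+ and 46.6, 41.6, 29.0, 19.99 and 48.0 CPM in Fl/Fl cultures. Every Fl/Fl culture was below every Fl/+ culture, a 2.48-fold fall (log2 fold change -1.31 ± 0.21, adjusted p = 0.00110, edgeR). Kif4, a chromokinesin that also shapes the midzone, was at 72.4, 78.3, 48.3, 80.1 and 80.7 CPM against 40.1, 39.4, 27.5, 23.2 and 50.8 CPM, with an overlap between Fl/+ culture 26 and Fl/Fl culture 39 (log2 fold change -0.98 ± 0.21, adjusted p = 0.00518, edgeR). Kif2c, which shortens microtubules at centromeres to correct faulty attachments, was at 63.8, 70.6, 48.6, 65.7 and 63.1 CPM against 35.2, 36.0, 22.5, 16.9 and 42.3 CPM. No Fl/Fl value reached the lowest Fl/+ value (log2 fold change -1.01 ± 0.22, adjusted p = 0.00551, edgeR). Kif18b, which acts on astral microtubules, was at 58.3, 67.3, 46.7, 59.4 and 63.0 CPM against 29.4, 28.7, 20.6, 15.9 and 35.2 CPM, with no overlap (log2 fold change -1.17 ± 0.19, adjusted p = 0.00126, edgeR).

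Members that act in the midzone and cytokinesis made up the rest. Kif14, which works with citron kinase at the midbody, had the largest fall in the family. It was at 22.4, 25.1, 15.4, 21.9 and 23.4 CPM in Fl/+ and 8.202, 9.08, 6.42, 5.26 and 9.38 CPM in Fl/Fl cultures, which is 2.79-fold lower with no overlap (log2 fold change -1.48 ± 0.18, adjusted p = 0.000288, edgeR). Kif23, the motor of centralspindlin, was at 62.0, 72.8, 46.7, 70.4 and 68.6 CPM against 45.7, 37.6, 27.2, 19.3 and 46.7 CPM, so that Fl/+ culture 26 and Fl/Fl culture 39 were level (log2 fold change -0.84 ± 0.22, adjusted p = 0.0150, edgeR). Kif20a, which brings Aurora B to the midzone, was at 85.3, 95.9, 62.8, 95.0 and 91.2 CPM against 49.7, 46.8, 31.4, 26.0 and 64.6 CPM (log2 fold change -0.96 ± 0.22, adjusted p = 0.00740, edgeR), and its groups overlapped through the same pair of cultures. Kif20b, needed for abscission, had a log2 fold change of -0.84 (adjusted p = 0.0154, edgeR). Kif18a, which damps chromosome oscillation at kinetochores, was the only tested mitotic kinesin that was not called, at 41.0 ± 11.2 CPM in Fl/+ and 29.2 ± 6.51 CPM in Fl/Fl cultures (SD, n = 5 in each). Its log2 fold change was -0.47 ± 0.21 with an adjusted p of 0.102 (edgeR). Without Fl/+ culture 26 it was called, at -0.63 with an adjusted p of 0.0153 (edgeR).

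**Figure D3:**
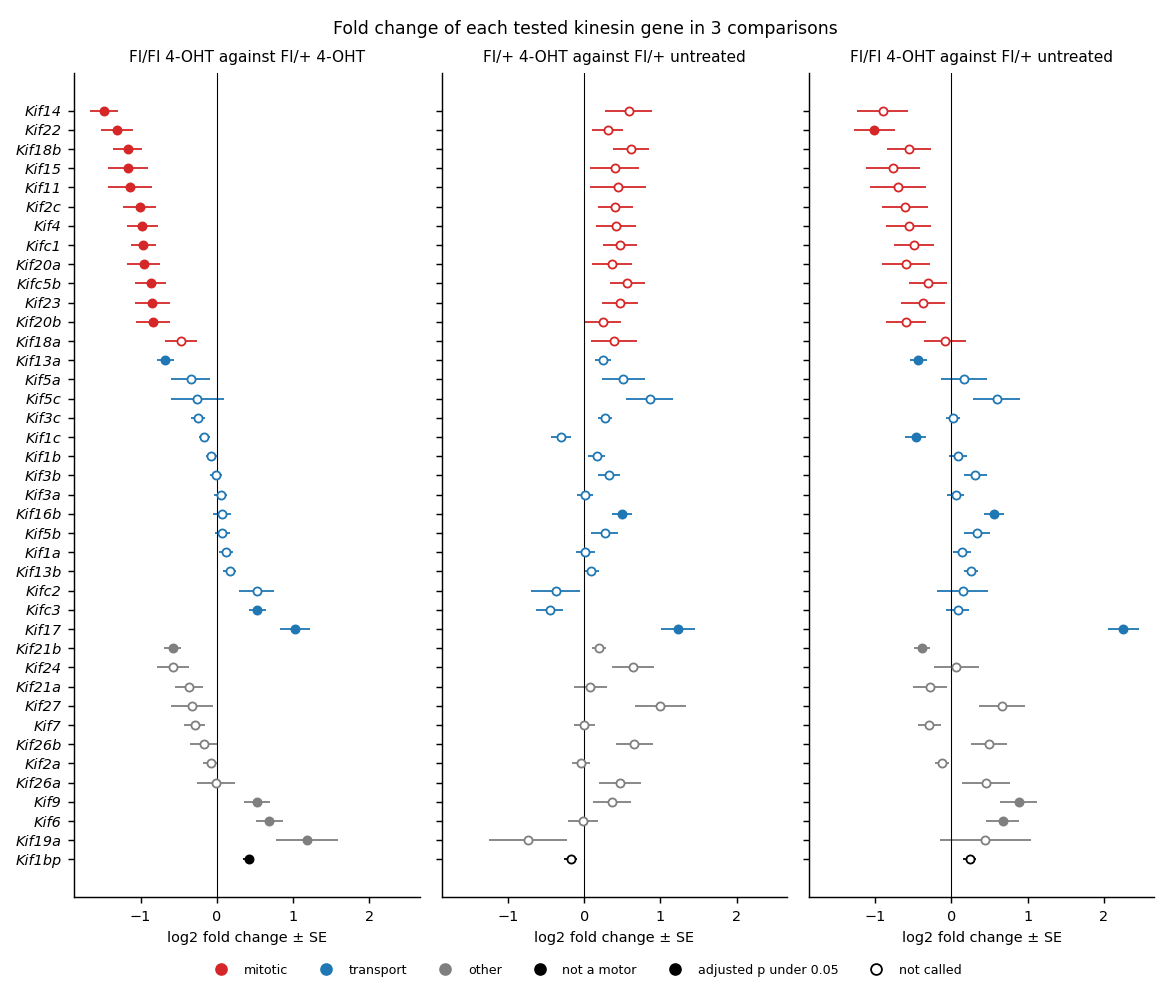
Log2 fold change of each tested member in the 3 comparisons. Points are edgeR estimates with bars of ± 1 SE, coloured by class, and filled where the adjusted p was under 0.05. In the left panel (Fl/Fl 4-OHT against Fl/+ 4-OHT) 12 of 13 mitotic points are filled and lie between -1.48 and -0.84, and in the middle panel (Fl/+ 4-OHT against untreated Fl/+) the same 13 points lie above 0 and are open.

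Genes that work beside these motors moved in the same direction. Of 20 spindle and midzone partners 17 fell after deletion and none rose, where 15% of all genes fell. Their median log2 fold change was -0.88. The largest were the proliferation marker Mki67 (-1.35), the kinetochore motor Cenpe (-1.27), the spindle assembly factor Nusap1 (-1.24) and Racgap1 (-1.10), the partner of Kif23 in centralspindlin. Cdk1, Cit and Ckap2 were not called. Across single cultures the 2 groups of genes rose and fell together. The mitotic kinesins summed to 27.6% to 29.2% of the summed partner level in the 10 Fl/+ libraries, although both sums differed more than 3-fold between untreated cultures 26 and 36. In the 5 Fl/Fl libraries the ratio was 25.1% to 27.0%, below all Fl/+ libraries.

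**Figure D4:**
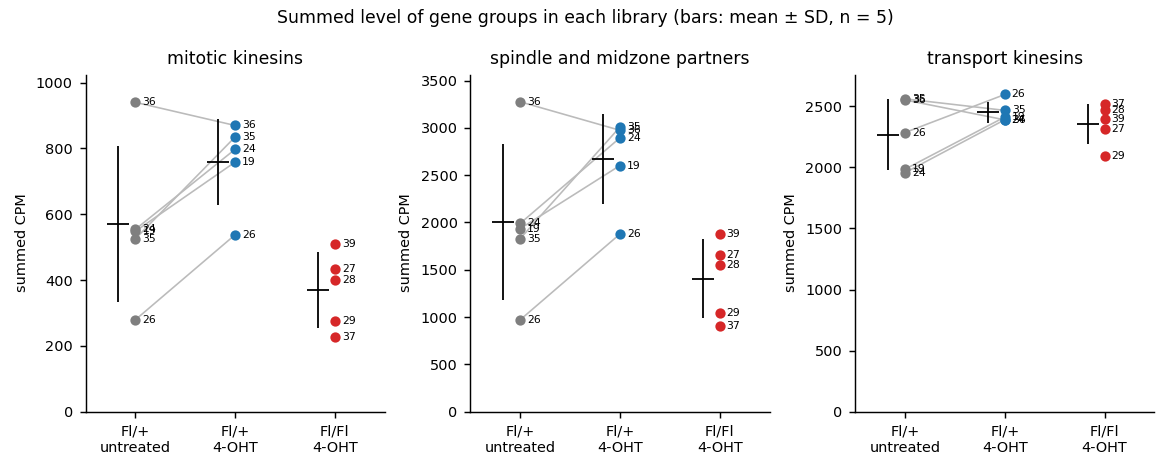
Summed CPM of the mitotic kinesins, of 20 spindle and midzone partners and of the transport kinesins in each library. Points are libraries labelled by culture number, grey lines join the same culture number without and with 4-OHT, and bars give the mean ± SD of 5. The mitotic kinesins reach 538 to 869.8 CPM in Fl/+ 4-OHT cultures and 227 to 508 CPM in Fl/Fl 4-OHT cultures, while the transport kinesins lie at 2389 to 2596 and 2094 to 2515 CPM.

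Genes of MuvB, FoxM1 and B-Myb, factors of the G2 and M programme, were also examined, together with E2f and Rbl genes. Of these 15, 7 were lower and 1 was higher after deletion, with a median log2 fold change of -0.36. Over all genes tested 15% were lower and 16.8% higher. E2f7 (-1.92), Mybl2 (-0.96), E2f2 (-0.88) and Foxm1 (-0.85) fell, and Lin52, of the MuvB complex, rose (0.45). Foxm1 and Mybl2 encode activators of CHR-bearing genes, and E2f7 encodes a repressor of G1/S genes.

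The log2 fold change was below 0 for all 13 tested mitotic kinesins among cultures labelled male and for 12 among those labelled female. The exception was Kif18a, at -0.78 in males and 0.06 in females. The female estimates compare Fl/Fl cultures 37 and 39 with Fl/+ cultures 24 and 26. The median log2 fold change over the 13 tested members was -1.06 among cultures labelled male and -0.86 among those labelled female, and no mitotic kinesin had a called difference between the sexes (smallest adjusted p = 0.146, edgeR interaction term). Such a difference was called for 2 of 40 members, Kif21b and Kif7, and for 7.34% of all genes tested. Fl/Fl cultures 27 to 29 are labelled male and 37 and 39 female, so sex and the series of culture numbers cannot be told apart in that group. The NSC marker list had 2 of 9 members lower and none higher after deletion, and 0 of 6 astrocyte markers were called by edgeR (0 at an unadjusted p under 0.05). Summed oligodendrocyte markers overlapped between the groups, and 0 of 6 were called by edgeR (1 at an unadjusted p under 0.05, median log2 fold change 1.10). Of 7 tested neuron markers 2 fell and 1 rose (median log2 fold change -0.46), led by the migrating neuroblast marker Dcx (-2.51), and the list summed to 836 to 1026 CPM in Fl/+ and 592 to 841 CPM in Fl/Fl cultures. Their part in the fall of Kif21b and of the mitotic kinesins was not tested. Fl/Fl culture 37 had both the highest oligodendrocyte sum and the lowest mitotic kinesin sum. Without this culture all 12 mitotic calls held, and their class median was -0.87.

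3 of the 15 transport kinesins were called after deletion, 2 higher and 1 lower, a share of 20% where 31.7% of all genes were called. Kif17 (ENSMUSG00000028758, chr4:138250435-138301967, plus strand), the homodimeric kinesin-2 of dendrites and cilia, was at 6.89, 4.91, 4.94, 8.81 and 6.88 CPM in Fl/+ and at 9.48, 11.9, 13.2, 16.4 and 14.5 CPM in Fl/Fl cultures. All Fl/Fl cultures were above all Fl/+ cultures, a 2.04-fold rise (log2 fold change 1.03 ± 0.19, adjusted p = 0.00284, edgeR). Kifc3 (ENSMUSG00000031788, chr8:95099828-95202812, minus strand), a minus-end motor of adherens junctions and the Golgi, was at 35.3, 26.4, 38.3, 39.9 and 34.7 CPM against 54.7, 46.5, 49.2, 50.9 and 48.9 CPM. It rose without overlap (log2 fold change 0.53 ± 0.11, adjusted p = 0.00362, edgeR). Kif13a (ENSMUSG00000021375, chr13:46749087-46929867, minus strand), which moves recycling endosomes, was at 195, 175, 206, 162 and 163 CPM against 113, 136, 113, 107 and 90.8 CPM. It fell 1.60-fold without overlap (log2 fold change -0.67 ± 0.11, adjusted p = 0.00135, edgeR).

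The abundant axonal and kinesin-1 motors showed no called change. Kif1a was at 508, 537, 624.6, 507 and 489 CPM in Fl/+ and 579, 602, 486, 616 and 585 CPM in Fl/Fl cultures (log2 fold change 0.12 ± 0.09, adjusted p = 0.345, edgeR). Kif1b was at 655, 719, 725, 706 and 689.6 CPM against 614, 716, 584, 712 and 668 CPM (-0.07 ± 0.08, adjusted p = 0.504, edgeR). The groups overlapped for both genes. Kif5b was at 284, 269.8, 226, 309 and 317 CPM against 283, 299, 246, 307 and 325 CPM, with a log2 fold change of 0.07 ± 0.10 (adjusted p = 0.627, edgeR), and Kif3a was at 124, 112, 128, 116 and 118 CPM against 132, 129, 132, 114 and 106 CPM, with a log2 fold change of 0.05 ± 0.08 (adjusted p = 0.680, edgeR). The standard errors of all 4 were at most 0.10 on the log2 scale, against 0.29 for Kif11. Kif1c was at 156, 174, 193, 190.0 and 183 CPM against 156, 157, 142, 168 and 168 CPM (log2 fold change -0.16 ± 0.07, adjusted p = 0.117, edgeR), and was called only without Fl/+ culture 19 (adjusted p = 0.0450, edgeR).

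Kif5c, a kinesin-1 heavy chain enriched in motor neurons, was uneven within groups. It was at 41.1, 11.9, 26.8, 32.6 and 37.2 CPM in Fl/+ and at 18.6, 19.95, 15.2, 46.5 and 23.5 CPM in Fl/Fl cultures, the highest value being that of Fl/Fl culture 37 (log2 fold change -0.26 ± 0.35, adjusted p = 0.601, edgeR). The log2 fold change of Kif5c was -1.02 among cultures labelled male and 0.86 among those labelled female. This difference was not called (adjusted p = 0.0506, edgeR interaction term). The endosomal motor Kif16b was level at 14.6 ± 1.70 and 15.2 ± 2.02 CPM (SD, n = 5 in each). The other transport members were Kif3b, Kif3c, Kif5a, Kif13b and Kifc2, with log2 fold changes between -0.34 and 0.52 and none called. Of these, Kif3c was called lower and Kifc2 higher in 2 of 18 alternatives each, Kif3c without Fl/+ culture 36 (adjusted p = 0.0392, edgeR) and with DESeq2, and Kifc2 without Fl/+ culture 26 (adjusted p = 0.0343, edgeR) and with the series of culture numbers as a covariate. Among 20 light chains and cargo adaptors, a list that includes Kif1bp, 6 rose and 2 fell (median 0.06). They were led by the light chain Klc2 (0.77), the adaptor Hap1 (0.73), the light chain Klc3 (0.61) and the mitochondrial adaptor Trak1 (-0.43). Of 23 tested dynein and dynactin genes 3 rose and 6 fell (median -0.05). Over all genes tested 31.7% were called, 16.8% higher and 15% lower.

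Among the 11 tested other kinesins Kif6, Kif9 and Kif19a rose and Kif21b fell, so that 4 were called, a share of 36.4% where 31.7% of all genes were called. Kif21b, a regulator of microtubule growth (ENSMUSG00000041642, chr1:136131389-136177998, plus strand) was at 406, 452, 485, 407 and 382 CPM in Fl/+ and at 316, 318, 299, 229 and 250.4 CPM in Fl/Fl cultures. It fell 1.49-fold with no overlap (log2 fold change -0.58 ± 0.11, adjusted p = 0.00331, edgeR). Kif6 and Kif9, known from motile cilia, were low throughout. Kif6 was at 1.49, 1.33, 1.30, 1.59 and 1.45 CPM against 1.96, 1.90, 2.33, 2.98 and 2.29 CPM, and rose without overlap (log2 fold change 0.69 ± 0.18, adjusted p = 0.0124, edgeR). Kif9 was at 1.86, 2.06, 1.66, 2.53 and 2.22 CPM against 2.64, 2.75, 3.61, 2.75 and 2.95 CPM, also without overlap (log2 fold change 0.52 ± 0.17, adjusted p = 0.0375, edgeR). This call was lost in 9 of 18 alternatives, with adjusted p of up to 0.107 (edgeR), among them those without Fl/+ culture 19, 24, 26 or 36 or without Fl/Fl culture 28, 29 or 39. Kif19a, which trims ciliary microtubules, was at 3.62 ± 0.975 against 8.18 ± 5.21 CPM (log2 fold change 1.19, adjusted p = 0.0461, edgeR). It was lost in 10 of 18 alternatives, among them those without Fl/Fl culture 28, 29 or 37 (0.82, adjusted p = 0.116 without 37, edgeR) or without any 1 of the Fl/+ cultures.

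Of 4 tested ependymal markers 1, the radial spoke gene Rsph1, rose after deletion. Their median log2 fold change was 0.86, and the 5 markers summed to 40.6 to 92.7 CPM in Fl/+ 4-OHT and 78.4 to 105 CPM in Fl/Fl cultures, which overlap, with Tmem212 at 0 in every library. Their part in the rise of Kif6, Kif9, Kif17 and Kif19a was not tested. The Hedgehog regulator Kif7 and its paralogue Kif27, the end-shortening Kif2a, the growth regulator Kif21a, the centriolar Kif24 and the atypical Kif26a and Kif26b had log2 fold changes between -0.58 and -0.01 and were not called. The closest was Kif24, at -0.58 ± 0.21 with an adjusted p of 0.0532 (edgeR). It was called in 5 of 18 alternatives, among them those without Fl/+ culture 26 (adjusted p = 0.0241, edgeR) or Fl/Fl culture 39 (adjusted p = 0.0288, edgeR), and Kif7 was called in 1, with the series of culture numbers as a covariate. Kif1bp, the binding protein that holds several kinesins inactive, rose from 115 ± 6.59 to 152 ± 12.9 CPM without overlap (log2 fold change 0.42 ± 0.07, adjusted p = 0.00171, edgeR).

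**Figure D5:**
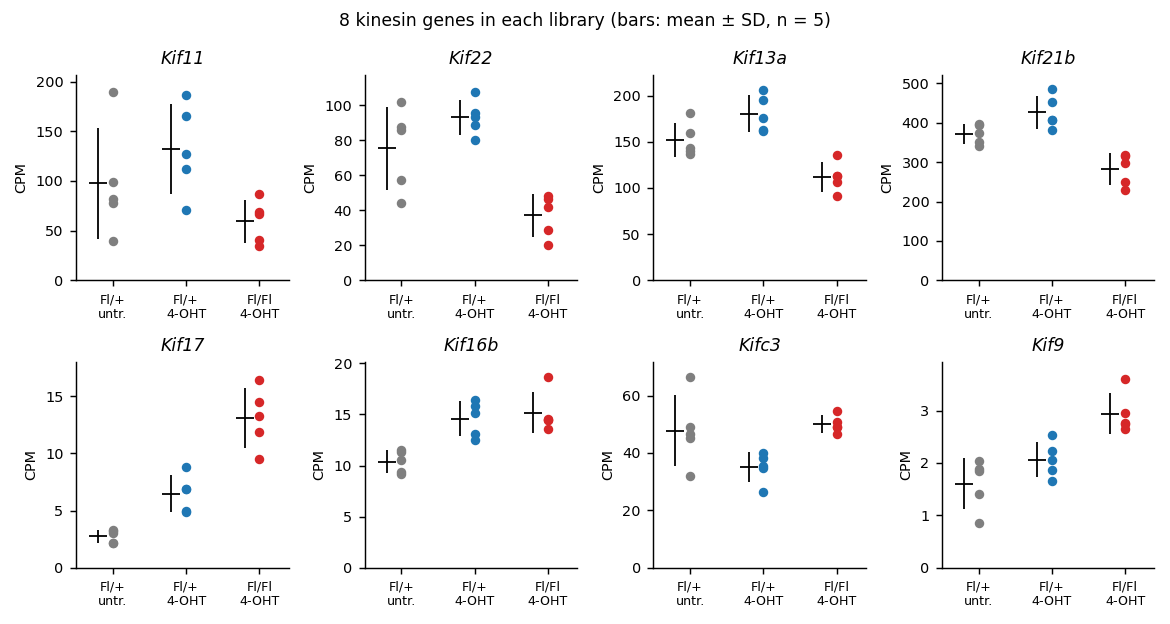
Level of 8 members in each library. Points are single libraries in CPM, and bars give the mean ± SD of 5. Kif11 and Kif22 (mitotic), Kif13a and Kif21b are lower in Fl/Fl than in Fl/+ cultures after 4-OHT, Kif17, Kifc3 and Kif9 are higher, and Kif16b is at 9.13 to 11.5 CPM without and at 12.5 CPM or more with 4-OHT in both genotypes.

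The second comparison asked what differed with 4-OHT in Fl/+ cultures, which can lose 1 Trrap allele. It shares the Fl/+ 4-OHT libraries with the first. Trrap itself was not called here (log2 fold change -0.21 ± 0.11, adjusted p = 0.234, edgeR). By culture number it was higher with 4-OHT in 0 of 5. With the number fitted as a block it was at -0.22 ± 0.08 (adjusted p = 0.0838, edgeR). 2 transport kinesins rose, and no other member was called. 13.8% of all 14821 genes tested were called, 7.34% higher and 6.45% lower (1088 and 956 genes, or 1396 and 712 with libraries scaled by total count alone), and the groups did not overlap for 3 of 40 members and for 12% of all genes. Kif17 was at 2.13, 2.999, 3.22, 3.31 and 2.17 CPM in untreated cultures 19, 24, 26, 35 and 36. In the 4-OHT cultures of the same numbers it was at 6.89, 4.91, 4.94, 8.81 and 6.88 CPM. It was higher in 5 of 5 cultures, 2.35-fold in the unpaired fit (log2 fold change 1.23 ± 0.22, adjusted p = 0.00486, edgeR). Kif16b, which carries early endosomes towards the cell periphery, was at 9.34, 11.5, 10.5, 11.3 and 9.13 CPM without and 15.1, 16.4, 12.5, 15.8 and 13.1 CPM with 4-OHT. It also rose in 5 of 5 cultures (log2 fold change 0.50 ± 0.13, adjusted p = 0.0263, edgeR), and without overlap. The Kif16b call was lost in 6 of 19 alternatives, 5 of them without a single culture: untreated 19 or 26, or 4-OHT 19, 24 or 35 (adjusted p of up to 0.0651, edgeR).

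All 13 tested mitotic kinesins had a positive log2 fold change with 4-OHT, from 0.25 to 0.62 with a median of 0.42, against 0.25 over the transport kinesins and -0.01 over all genes. The mitotic median was 0.24 without untreated culture 26 and 0.68 without untreated culture 36. None was called by edgeR or by DESeq2, and 2 had an unadjusted p under 0.05 in edgeR. Since both Fl/+ groups carry the same culture numbers, these were taken to pair the cultures, which the labels do not state. On that reading the culture number was also fitted as a replicate block. With the block 17 of 40 members were called, 16 higher and 1 lower, where 25.7% of all 14821 genes were called, 13.8% higher and 11.9% lower. 8 were mitotic kinesins, and their class median was 0.51. Kif11 had a blocked log2 fold change of 0.54 ± 0.12 (adjusted p = 0.0146, edgeR), Kif18b 0.70 ± 0.15 (adjusted p = 0.0133, edgeR) and Kif23 0.54 ± 0.13 (adjusted p = 0.0215, edgeR). Culture by culture, Kif11 went from 78.3 to 128, 81.6 to 112, 39.7 to 70.7, 98.8 to 165 and, in culture 36, 189.5 to 186 CPM. Culture 36 had the highest untreated level of all 13 mitotic kinesins. For 12 of the 13 exactly 4 of 5 cultures rose, and Kif18a rose in 5 of 5. The exact sign-flip test over 5 pairs cannot go below p = 0.0625, which Kif18a reached.

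Without untreated culture 36, 9 of 40 members were called in the unpaired fit, where 16.7% of all genes were called. They were the mitotic kinesins Kif14, Kif18b, Kif23, Kifc1 and Kifc5b, together with Kif3b, Kif16b, Kif17 and Kif24. The spindle and midzone partners had a median log2 fold change of 0.40, close to that of the mitotic kinesins, and 0 of 20 were called by edgeR in the unpaired fit (0 at an unadjusted p under 0.05). With the block 11 of the 20 were called, all higher, and their median was 0.49. In the blocked fit Kif3c, Kif5c and Kif13a were also higher, at 0.27 (adjusted p = 0.0228), 0.80 (adjusted p = 0.0445) and 0.25 (adjusted p = 0.0456), and Kifc3 was lower at -0.43 (adjusted p = 0.00943, all edgeR). Kifc3 was at 46.7, 31.9, 49.0, 66.3 and 45.1 CPM without 4-OHT, and fell in 5 of 5 cultures. Among the other kinesins Kif24 (0.72, adjusted p = 0.0304) and Kif26b (0.68, adjusted p = 0.0339, both edgeR) were higher with the block. Kif27 went from 0.344 ± 0.131 to 0.687 ± 0.228 CPM, with a blocked log2 fold change of 1.00 (adjusted p = 0.0247, edgeR). In the unpaired fit oligodendrocyte markers rose with 4-OHT (4 of 6 called, median log2 fold change 2.4003). Of 6 astrocyte markers 1 was higher and 2 were lower (log2 fold changes from -1.93 to 3.25), and of 9 NSC markers 1 was higher and 2 were lower (median -0.16). Of 7 tested neuron markers 0 were called by edgeR in that fit (3 at an unadjusted p under 0.05, median -0.36). Of 3 tested ependymal markers 0 were called by edgeR, unpaired or with the block. In the unpaired fit 2 had an unadjusted p under 0.05, and their median was 0.63. The 5 ependymal markers summed to 28.0 to 65.5 CPM without and 40.6 to 92.7 CPM with 4-OHT. With the block 4 of 6 oligodendrocyte markers were higher, 2 astrocyte markers were higher and 2 lower, 1 NSC marker was higher and 3 lower (median -0.18), and 3 neuron markers, Rbfox3 (-1.05), Snap25 (-0.66) and Syp (-0.38), were lower. Their part in these changes was not tested.

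Several of the abundant motors had no called difference with 4-OHT. Kif1a was at 435, 445, 544, 577 and 636 CPM in untreated cultures and Kif1b at 533, 521, 601, 754 and 711 CPM, with log2 fold changes of 0.02 ± 0.12 and 0.17 ± 0.11 with 4-OHT (adjusted p = 0.944 and 0.368, edgeR). Kif3a was at 114, 138, 137, 107 and 98.3 CPM untreated (0.01 ± 0.10, adjusted p = 0.953, edgeR). Kif5b and Kif5c, both kinesin-1 heavy chains, had positive values. The abundant Kif5b was at 201, 173, 187, 279 and 328 CPM untreated (0.27 ± 0.18, adjusted p = 0.349, edgeR), and the scarcer Kif5c at 11.1, 11.9, 21.5, 21.6 and 16.5 CPM (0.86 ± 0.31, adjusted p = 0.0906, edgeR). Kif5c was higher in 5 of 5 cultures with 4-OHT, although at 11.9 CPM in both libraries of culture 24 when rounded, and it is one of the members called with the block. Kif1c, at 193, 162, 218, 269 and 265 CPM untreated, had a negative one (-0.30 ± 0.14, adjusted p = 0.165, edgeR).

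The third comparison set Fl/Fl 4-OHT cultures against untreated Fl/+ cultures, so that treatment and genotype differ together. It shares its libraries with the other 2 comparisons. 8 of 40 members were called, 4 higher and 4 lower, against 30.7% of all 15032 genes tested, 15.7% higher and 15.1% lower. With libraries scaled by total count alone the split was 6 higher and 2 lower, and over all genes 3150 higher and 1603 lower instead of 2357 and 2263. The groups did not overlap for 7 members and for 23.1% of all genes. Kif17 stood out among the members, at 2.13 to 3.31 CPM in untreated Fl/+ and 9.48 to 16.4 CPM in Fl/Fl cultures, a 4.77-fold rise (log2 fold change 2.26 ± 0.20, adjusted p = 6.41e-05, edgeR). It was called in all 18 alternatives, between 2.16 and 2.35. Kif16b (0.56), Kif6 (0.67) and Kif9 (0.88) were higher, and Kif1c (-0.47), Kif13a (-0.43), Kif21b (-0.39) and Kif22 (-1.01) were lower.

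Kif22 was the only mitotic kinesin called with all libraries in this comparison, and the count rested on untreated culture 26. Without that culture 5 of 13 were called, all lower (Kif14, Kif15, Kif20b, Kif22 and Kifc1, edgeR), where 13% of all genes tested were called lower. Without untreated culture 36 Kif22 alone was called. It was at 85.8, 87.6, 44.2, 57.2 and 102 CPM in untreated Fl/+ cultures, so that only culture 26 reached into the Fl/Fl range of 19.99 to 48.0 CPM (adjusted p = 0.0163, edgeR). All 13 tested mitotic kinesins had negative log2 fold changes, from -1.01 to -0.08, with a median of -0.59 against 0.15 over the transport kinesins and 0.00 over all genes. 3 had an unadjusted p under 0.05, and DESeq2 called 2. The spread among untreated cultures was wide for each. Kif14 was at 12.6, 14.8, 6.19, 11.7 and 27.2 CPM there, Kif15 at 33.3, 33.3, 16.3, 34.2 and 71.2, Kif18b at 36.8, 36.1, 20.2, 35.7 and 63.8, and Kif23 at 45.2, 45.3, 23.2, 46.3 and 71.1. The other genes had the same lowest and highest cultures. Kif20a was at 66.8, 64.9, 31.0, 61.2 and 111 CPM, Kif2c at 51.5, 50.99, 24.5, 37.5 and 70.9, Kif4 at 53.2, 50.6, 25.8, 49.7 and 90.4, and Kifc1 at 22.6, 21.3, 12.1, 21.8 and 34.8. In each of these genes culture 26 lay within the Fl/Fl range and culture 36 above it. Without untreated culture 36 the mitotic median was -0.31, and without untreated culture 26 it was -0.75.

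The members that lay apart from the untreated cultures in this comparison were few. Kifc3, higher in the first comparison, was at 47.8 ± 12.3 CPM in untreated Fl/+ and 50.03 ± 3.06 CPM in Fl/Fl cultures (SD, n = 5 in each), with a log2 fold change of 0.08 ± 0.15 (adjusted p = 0.728, edgeR). Kif13b lay above all untreated cultures but was not called (log2 fold change 0.26 ± 0.09, adjusted p = 0.0516, edgeR). It was called higher in 6 of 18 alternatives, among them DESeq2 and the fit without untreated culture 36. Kif1bp (0.24, adjusted p = 0.0617, edgeR) was also called higher in 6 of 18. Kif13a was at 137, 159.9, 181, 139.6 and 143 CPM untreated, above all Fl/Fl cultures. Kif21b, at 341, 351, 398, 375 and 394 CPM untreated, was likewise above all of them. Both calls were lost when libraries were scaled by total count alone (adjusted p = 0.0518 and 0.0717, edgeR). Kif6 was at 1.01, 1.85, 1.504, 1.46 and 1.40 CPM and Kif9 at 1.41, 1.88, 1.85, 2.04 and 0.847 CPM untreated, below every Fl/Fl culture. The Kif6 call was lost in 8 of 18 alternatives (adjusted p of up to 0.0885, edgeR), in 7 of them by leaving out 1 culture (untreated 19, 26, 35 or 36, or Fl/Fl 29, 37 or 39), whereas Kif9 kept its call in all 18. The Kif1c call was lost without Fl/Fl culture 29 (adjusted p = 0.0517, edgeR). Ependymal markers were higher here too (3 of 4 called, median log2 fold change 1.803), as were oligodendrocyte markers (5 of 6, median 3.21), while 5 of 7 neuron markers were lower. 4 of 9 NSC markers were lower and none higher (median -0.21), and of 6 astrocyte markers 1 was higher and 2 were lower (from -1.75 to 3.72). Their part in these changes was not tested.

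The balance of the family can be put as shares of the summed kinesin level per kb. In untreated Fl/+ cultures mitotic kinesins made up 13.2% to 31.9% of it, in Fl/+ 4-OHT cultures 21.5% to 30.8%, and in Fl/Fl 4-OHT cultures 10.6% to 21.8%, so that only culture 39, the highest of the last group, lay above the lowest Fl/+ 4-OHT culture. Transport kinesins made up 55.2% to 69.4% in untreated Fl/+, 54.9% to 63.1% in Fl/+ 4-OHT and 65.8% to 75.8% in Fl/Fl 4-OHT cultures. The last 2 groups did not overlap, while untreated culture 26, at 69.4%, lay within the Fl/Fl range. In Fl/+ 4-OHT and Fl/Fl 4-OHT cultures the transport kinesins summed to 2451 ± 87.4 CPM and 2356 ± 166 CPM (SD, n = 5 in each), while the mitotic kinesins summed to 759.8 ± 131 CPM and 369 ± 115 CPM.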

How the data were processed

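RNA-seq of 15 aNSC cultures was analysed. The authors made stranded libraries, mapped single-end reads to GRCm38 with STAR 2.5.4b and counted uniquely mapped reads per gene with featureCounts 1.5.0. The table deposited by the authors holds raw, unscaled counts. Reads that fit several places were left out, which lowers the values of near copies such as Kifc1 and Kifc5b. 53706 of 53801 gene IDs were matched to an annotation of GRCm38, and all rows name a gene. The libraries had no molecular identifiers, so the floor of 3 counts (0.0932 to 0.118 CPM) covers counting error only.

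Counts were tested with edgeR 4.0.16 in R 4.3.3 (filterByExpr with a minimum count of 10, TMM, quasi-likelihood F test, Benjamini-Hochberg over all genes tested), separately for each pair of groups. CPM uses TMM-scaled library sizes. Single genes were also tested by exact two-sided permutation on log2(CPM + 0.5) (252 arrangements, smallest p 0.00794) or by sign flips (32 arrangements). On simulated data the test recovered 65% of 200 genes changed 2-fold in the Trrap deletion comparison. Values in every library are given for members called with an absolute log2 fold change of at least 0.5 (up to 12 per comparison), for the 5 highest levels per length, and for Kif11, Kif23, Kif1a, Kif3a, Kif5b and Kif5c. Members, classes and lists were chosen with earlier results of these data known.

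Both Fl/+ groups carry the same culture numbers with the same labelled sexes. Deviations from the group means correlated between libraries of the same number with r of 0.154 to 0.632. Between libraries of different numbers r was -0.554 to 0.343. The lowest same-number value, for culture 19, lies within the range of different numbers. Taking deviations from the group means also lowers r between different numbers in advance. The numbers were taken to pair the cultures, which the labels do not state, and the blocked results rest on this. Nothing in the labels says that cultures of a group came from separate mice beyond these numbers. Labels and methods disagree on the amount of 4-OHT, which is left out. Alternatives were DESeq2 1.42.0, its size factors, library size alone, no filter, 10 counts in every library, all 15 libraries in one fit, sex or the series of culture numbers as a covariate, the replicate block, each library left out, pseudocounts of 0.1 and 1, and the longest transcript as gene length.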

Additional observations from a re-analysis of the deposited data

Results flagged for a closer look

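Among 40 tested members in 3 groups of 5 libraries, 7 of 120 sets of values held a library whose gap to its nearest neighbour exceeded 0.71 of the whole range on the log2(CPM + 0.5) scale, a distance that chance gives in about 1 set in 20. In Fl/+ 4-OHT culture 26 the mitotic kinesins Kif14 (15.4 CPM), Kif20a (62.8 CPM) and Kif4 (48.3 CPM) lay far below the other 4 cultures. On the CPM scale the gaps of Kif14 and Kif20a were 0.669 and 0.680 of the range and did not exceed that limit, while the other 5 did. Kifc1 lay high in Fl/+ 4-OHT culture 24 (38.0 CPM). Fl/Fl culture 37 was high for Kif16b (18.7 CPM) and for Kif1bp (175 CPM), and Fl/Fl culture 29 was low for Kif1a (486 CPM).

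The change after Trrap deletion differed between the labelled sexes for 2 members by edgeR's interaction term, adjusted over 15036 genes, of which 7.34% were called. Kif21b had a log2 fold change of -0.33 in cultures labelled male and -0.97 in those labelled female (difference of females minus males -0.64, adjusted p = 0.0231, edgeR). Kif7 had 0.02 and -0.77 (difference -0.79, adjusted p = 0.0230, edgeR). The female values rest on Fl/Fl cultures 37 and 39 and Fl/+ cultures 24 and 26, and sex cannot be told apart from the series of culture numbers in the Fl/Fl group.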

How the results depend on the processing

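After Trrap deletion the number of members called was 18 to 22 over all alternatives, and 18 to 21 when each library was left out. Over all genes 4773 were called there. The lowest and highest counts were 3772 without Fl/+ 4-OHT culture 19 and 5474 with DESeq2. The mitotic median log2 fold change was -1.15 to -0.87 and the transport median -0.03 to 0.05 when each library was left out. For 4-OHT the 2 calls became 1 with no filter on low counts, 4 with DESeq2, 4 with all 15 libraries in one fit, 4 with sex as a covariate and 17 with the replicate block, and ranged from 1 to 9 when each library was left out (9 without untreated culture 36, 4 without untreated culture 24), while the mitotic median was 0.24 to 0.68 and the transport median 0.18 to 0.27. In the Fl/Fl against untreated Fl/+ comparison 6 to 12 members were called. When each library was left out, the mitotic median was -0.75 to -0.31 and the transport median 0.07 to 0.27. Of all genes 4620 were called there, 3700 without Fl/Fl culture 28 and 5521 with the series of culture numbers as a covariate. Over all genes 2044 were called for 4-OHT, 3809 with the replicate block, 3170 with the series of culture numbers as a covariate, and 1271 and 1311 without 4-OHT cultures 19 and 35. No called fold change of a tested member changed its sign under these alternatives. Scaling by library size alone raised the median of all genes by less than 0.1. The paired fit was possible for 4-OHT only, since the Fl/Fl cultures carry other numbers. With 5 cultures a group, the wide spread of mitotic kinesins among untreated cultures limits what the last 2 comparisons can show, and members under 1 CPM rest on few counts.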
